A study of Mus musculus with 8 samples.

Results

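The 33 genes described here serve the response to interferon-gamma and the display of antigen on the cell surface. They comprise 9 interferon-gamma inducible GTPases, 7 genes of antigen presentation by major histocompatibility complex (MHC) class I, 5 immunoproteasome genes, 5 genes of class II presentation, and 7 receptors, regulators and chemokines. They were taken by symbol, out of 18193 genes with a probe set of their own, and each was represented by the probe set selected on the highest mean signal over all 8 arrays. A probe set is a group of short probes that reads 1 region of a transcript. The list was drawn up with the difference between knockout and wild type already known, so the values below describe these arrays and are no independent evidence of a direction. Of the 33, 32 had a probe set of their own. The probe set of Psme2, a subunit of the proteasome activator, is shared with Psme2b and was not analysed here.

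The study measured liver RNA of mouse pups lacking glycerol kinase, the enzyme that phosphorylates glycerol, and of wild-type littermates. There were 4 knockout and 4 wild-type pups of the inbred C57BL/6J strain, given as male, and all were taken on day of life 3. According to the design text the knockout pups were hypoglycaemic and acidotic by then. Each liver was hybridised singly to an Affymetrix Mouse 430 2.0 array. The labels give no promoter, Cre or further allele for either group, and glycerol kinase itself was not analysed here.

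Interferon-gamma binds a receptor built from Ifngr1 and Ifngr2, and the signal passes through the kinases Jak1 and Jak2 to the nucleus. Promoters of genes that respond often hold short DNA elements called GAS and ISRE, and factors of the IRF family, Irf1 among them, bind the ISRE. The induced genes include GTPases that attack the membranes around intracellular microbes, and the parts that cut proteins into peptides and load them on MHC molecules. Class I molecules occur on nearly all nucleated cells, whereas class II molecules are mainly carried by B cells, dendritic cells and macrophages, the liver's Kupffer cells among them.

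The promoters of several members carry these elements, and the following stretches are shown because their genes carry the results below or contrast with them. They come from RefSeq promoter windows of the GRCm38.p6 assembly, each from 250 bases before to 50 bases after an annotated transcription start, and read 5′ to 3′ along the strand of the gene. Capitals mark matches to TTCNNNGAA (the GAS letters) or GAAANNGAAA (the ISRE letters) on either strand.
Gbp7: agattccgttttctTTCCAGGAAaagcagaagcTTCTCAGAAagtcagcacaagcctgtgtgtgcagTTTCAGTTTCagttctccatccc
Igtp: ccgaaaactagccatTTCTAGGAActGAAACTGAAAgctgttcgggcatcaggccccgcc
Irgm2: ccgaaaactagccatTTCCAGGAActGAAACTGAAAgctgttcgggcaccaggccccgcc
Gbp2: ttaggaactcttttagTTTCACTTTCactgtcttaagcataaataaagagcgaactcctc
Irf1: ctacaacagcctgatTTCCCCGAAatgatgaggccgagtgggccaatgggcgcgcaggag
Psmb8: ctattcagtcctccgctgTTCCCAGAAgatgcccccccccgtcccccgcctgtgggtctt
B2m: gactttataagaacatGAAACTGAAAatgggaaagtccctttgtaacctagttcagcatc
Psmb9 to Tap1: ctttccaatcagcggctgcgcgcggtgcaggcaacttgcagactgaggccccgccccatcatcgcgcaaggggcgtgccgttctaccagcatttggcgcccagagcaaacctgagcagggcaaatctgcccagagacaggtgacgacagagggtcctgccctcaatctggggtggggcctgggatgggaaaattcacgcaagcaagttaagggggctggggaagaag

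On the plus strand these stretches lie at chr3:142530216-142530305 (Gbp7), chr11:58199496-58199555 (Igtp), chr11:58214887-58214946 (Irgm2), chr3:142620588-142620647 (Gbp2), chr11:53769909-53769968 (Irf1), chr17:34198080-34198139 (Psmb8) and chr2:122147532-122147591 (B2m). The Igtp and Irgm2 stretches were identical at 58 bases, and in both the ISRE letters begin 11 bases after the GAS letters. In Gbp7 there are 2 GAS matches, which begin 106 and 87 bases before the start, and 1 ISRE match at 53 bases. The last stretch, chr17:34187330-34187556, holds the 226 bases between the starts of Psmb9 and Tap1, which are transcribed away from each other. It contains neither set of letters.

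A window was used for 26 of the 33 members. The GAS letters stood in those of 6 genes (Gbp7, Igtp, Irgm2, Psmb8, Irf1 and Irf8) and in 8.30% of the 32851 windows of that length for all genes. The ISRE letters stood in those of 10 (Gbp2, Gbp3, Gbp7, Igtp, Irgm1, Irgm2, B2m, Psme1, Socs1 and Cxcl10) and in 3.44% of all windows. Members were counted by gene, with a match in any window of the gene, whereas the percentages count single windows. The units therefore differ, and some members, such as Irf1 and Irf8, had more than 1 window. Gbp7, Igtp and Irgm2 had both, and 13 genes had neither, Psmb9, Psmb10, Tap1, H2-K1 and H2-Aa among them. Gbp6, Tap2, Nlrc5, H2-Ab1 and Ciita had no window. Windows on chromosome 18, where Iigp1 and Cd74 lie, were left out for the members but not from the count of all windows. A match describes the letters and is not a binding site, and a window without one says nothing about the factor.

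The deposited signals are linear, and their median per array ran from 147 to 174. With 4 arrays a group the precision is limited, and the standard errors of the log2 differences had a median of 0.19. The array labelled wild type 4 went against its male label, with Xist, the RNA of the inactive X chromosome, at 10506 against 196 to 396 on the others, and Eif2s3y, a gene of the Y chromosome, at 1.3 where the others had 685 to 1164. The spiked-in control BioB parted replicates 1 and 2 (141 to 167) from replicates 3 and 4 (258 to 338) in both groups; these pairs are called the first and second set here, and the labels name no batch. The 3′/5′ ratio of the pyruvate carboxylase control, a measure of RNA quality, was 7.03 on knockout 1, 4.93 on knockout 2 and 3.46 on wild type 1, and lay between 2.06 and 2.63 on the other 5 arrays.

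In the knockout livers the GTPase Gbp7 and the immunoproteasome subunit Psmb10 fell, each to less than the lowest wild-type signal, and no member rose. These were 2 of the 28 members tested, by limma with a Benjamini-Hochberg adjusted p under 0.05 over all 20395 probe sets whose signal reached 200 on at least 4 arrays. The background is 0.152% of probe sets called lower and 0.147% called higher. At an unadjusted p under 0.05, 15 members were lower and 0 higher, against 7.32% and 7.12% of all probe sets. The groups did not overlap for 10 members, lower in the knockout each time, against 4.85% of probe sets lower and 4.47% higher in this way. The median log2 difference of the tested members, knockout minus wild type, was -0.58, and 26 lay below 0, whereas the median of all probe sets was -0.03, with 54.2% below 0. Because the members were chosen with this contrast known, nothing is read from the distance to the background. Without wild type 4, the array that went against its label, limma called 0 members (13 lower and 0 higher at an unadjusted p under 0.05), and the median was -0.64. It also called 0 without wild type 2 or 3 or knockout 1, 2 or 3, 3 without wild type 1 and 6 without knockout 4. The calls over all 20395 probe sets moved too, from 31 lower and 30 higher with all arrays. They were 123 and 211 without knockout 4, 43 and 22 without wild type 1, and 15 and 7 without knockout 1. Without wild type 4 they were 2 and 4, and without wild type 2 or 3 or knockout 2 or 3 they were 2 and 0. The share of all probe sets at an unadjusted p under 0.05 without wild type 4 is not given here. Of the 12 members with more than 1 tested probe set, 11 had probe sets of 1 sign, and the exception was Tapbp. In whole liver, fewer cells of a type and less RNA per cell cannot be told apart.

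**Figure D1:**
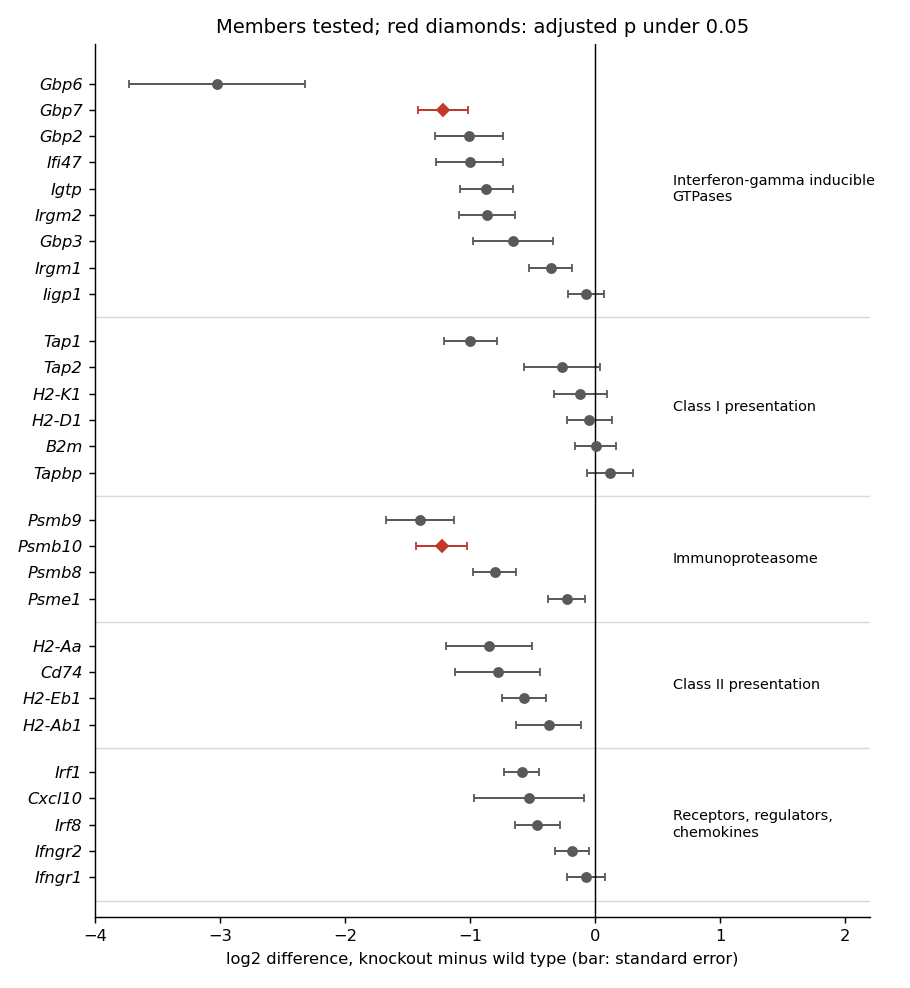
Log2 difference of signal (knockout minus wild type, horizontal axis) for each of the 28 members tested, by group; bars are limma standard errors over 4 arrays a group. Gbp7 and Psmb10, drawn as red diamonds, had adjusted p-values under 0.05, and all members but B2m and Tapbp lie left of 0.

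Of the GTPases, 1 of 9 passed the threshold, against 0.152% of all probe sets called lower. In limma 6 were lower and 0 higher at an unadjusted p under 0.05, against 7.32% and 7.12% of all probe sets. The 9 lay below 0 with a median log2 difference of -0.87. The guanylate-binding proteins are large GTPases that coat and break open vacuoles holding microbes. Gbp7 had signals of 965, 1011.5, 1146 and 835 on wild-type arrays 1 to 4, and of 441, 528, 274 and 462 on knockout arrays 1 to 4. The highest knockout array lay well under the lowest wild-type array, which was wild type 4. Gbp7 thus stood at 989.5 ± 128 (SD, n = 4) in the wild type and 426 ± 108 (SD, n = 4) in the knockout, a log2 difference of -1.21 ± 0.20 (SE; limma, adjusted p = 0.0466). That call is narrow: the adjusted p was 0.0322 without knockout 4, but 0.0700 without wild type 1, 0.169 without wild type 2, 0.157 without wild type 3 and 0.0861 without wild type 4. It was 0.0772 without knockout 1, 0.0833 without knockout 2 and 0.105 without knockout 3. The second probe set of Gbp7 gave a log2 difference of -0.82 (limma, adjusted p = 0.107).

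Gbp6 had the largest log2 difference of the 28 members tested. Its signals were 980.1, 957, 1178 and 414 in the wild type and 17, 219, 26 and 332 in the knockout. The groups did not overlap, yet knockout 4 came near wild type 4, and knockouts 1 and 3 were close to the pseudocount of 16. The log2 difference was -3.03 ± 0.71 (SE; limma, adjusted p = 0.0992), and a pseudocount of 64 made it -2.40. The second probe set gave -1.92 ± 0.38. Without knockout 4, Gbp6 passed the threshold at -3.61 (limma, adjusted p = 0.0320). It did not pass with any other array left out (limma, adjusted p up to 0.272). Gbp2 stood at 626, 522, 645 and 315 against 294, 338, 159 and 225, where wild type 4 fell inside the knockout range. Its difference was -1.01 ± 0.27 (limma, adjusted p = 0.137). On the second probe set of Gbp2 the groups did not overlap, with 305 to 608 against 147 to 273 and a difference of -1.14 ± 0.24 (SE; limma, adjusted p = 0.0826). With the first and second set as a block its adjusted p in limma was 0.0459, and 0.0371 also without wild type 4. The chosen probe set of Gbp2 did not pass in these fits (limma, adjusted p = 0.0694 and 0.0585). They called 0.397% and 0.25% of all probe sets lower. Gbp3 gave -0.66 ± 0.32.

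The immunity-related GTPases, smaller proteins of which some gather on the same vacuoles, showed a range from large to almost no difference. Igtp had 3109, 3744, 4200.1 and 3355 in the wild type and 1616, 2899, 1437 and 2142 in the knockout. The groups did not overlap, and knockout 2 came closest to the wild type. Its log2 difference was -0.87 ± 0.21 (SE; limma, adjusted p = 0.107). Irgm2, whose promoter stretch nearly matches that of Igtp, had 2232.5, 2212, 2280.1 and 1732 against 947, 1358, 796 and 1691. Wild type 4 and knockout 4 almost touched, and the difference was -0.86 ± 0.23 (limma, adjusted p = 0.124). Without knockout 4 it was -1.05 (limma, adjusted p = 0.0401). Irgm2 did not pass with any other array left out. Ifi47, also called Irg47, had 1939.6, 2106, 2484 and 1448 against 666, 1509.6, 736 and 1185, with knockout 2 above wild type 4 and a difference of -1.004 ± 0.27.

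Irgm1, among the regulators of other family members, had 1776, 1524, 1794 and 1487 in the wild type and 905, 1461, 1371 and 1464 in the knockout. The groups did not overlap, but knockouts 2 and 4 lay just beneath wild type 4, and the log2 difference was -0.36 ± 0.18. Iigp1 had signals from 7660.5 to 10589 in the wild type and from 6924 to 10298 in the knockout, overlapping, with a difference of -0.08 ± 0.14. Wild type 4 was the lowest wild-type array for 8 of the 9 GTPases. Without it the median of the GTPases was -0.96. Among the knockouts, array 3 was the lowest for 6 and array 1 for 3.

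**Figure D2:**
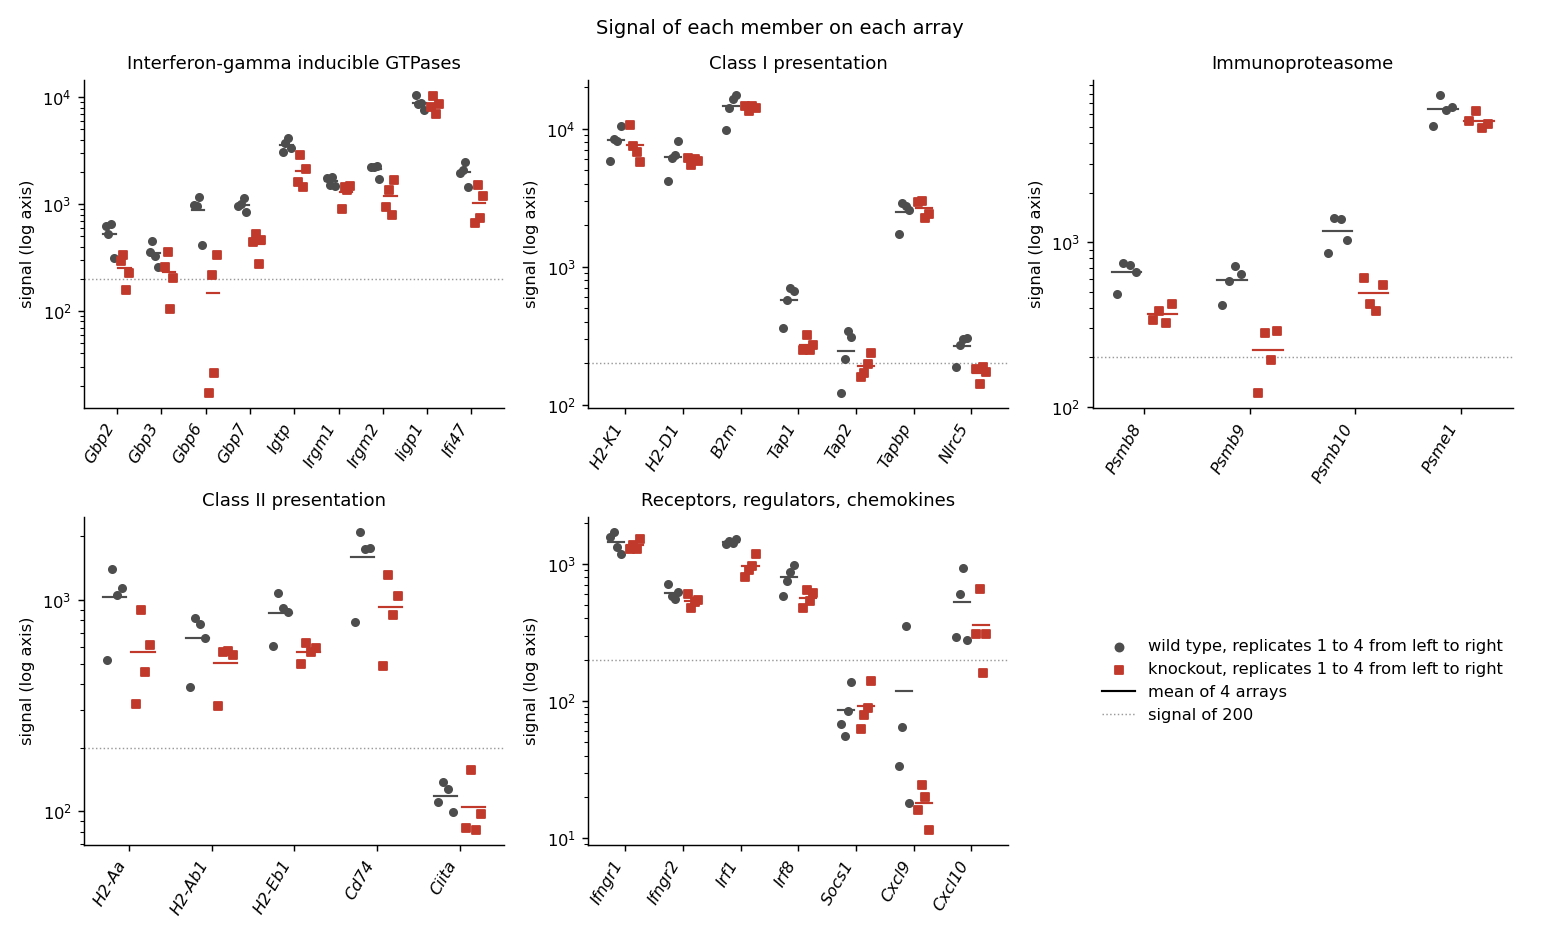
Signal (log axis) of each member with its own probe set on each array, with replicates 1 to 4 from left to right in each group; grey circles are wild type, red squares knockout, short lines the mean of 4 arrays, and the dotted line the signal of 200 used as the minimum. Gbp7, Psmb8, Psmb9, Psmb10, Tap1 and Irf1 show groups that do not overlap, while those of B2m and Iigp1 overlap.

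Class I presentation was mixed: 0 of 6 tested members passed the threshold in limma (1 lower and 0 higher at an unadjusted p under 0.05), and the median log2 difference was -0.08, with -0.25 without wild type 1 and 0.05 without wild type 4. The exception in size was Tap1, a subunit of the pump that carries peptides into the endoplasmic reticulum. It had 362, 574, 698 and 664 in the wild type and 249.9, 322, 249.7 and 269 in the knockout. The 4 knockout arrays kept within a narrow band under the lowest wild-type array, wild type 1. The log2 difference was -0.997 ± 0.21 (SE; limma, adjusted p = 0.0825), and without wild type 1 it was -1.20 (limma, adjusted p = 0.0332). Leaving out any other array did not bring Tap1 past the threshold (limma, adjusted p up to 0.237). Tap2, the partner subunit, had 120.5, 214, 341 and 308 against 159, 169.9, 196 and 237. The groups overlapped, since wild type 1 was the lowest array, and the difference was -0.26 ± 0.31.

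Tapbp, or tapasin, which bridges the pump to empty class I molecules, had 1715, 2892, 2741 and 2597 in the wild type and 2954, 3017, 2270.5 and 2429 in the knockout. The groups overlapped, with knockouts 1 and 2 above every wild-type array and wild type 1 lowest. Its log2 difference was 0.12 ± 0.18, while its other probe set gave -0.25 ± 0.24. The class I heavy chains and their shared light chain did not separate the groups. H2-K1 ranged from 5866 to 10517 in the wild type and from 5718 to 10598 in the knockout (log2 difference -0.12 ± 0.21). H2-D1 ranged from 4203 to 8134 and from 5462 to 6159.8 (-0.05 ± 0.18). B2m, the light chain, ranged from 9776 to 17669.9 and from 13518.5 to 14591.5 (0.01 ± 0.16). For these 3 genes the wild-type arrays spanned most or all of the knockout range. The heavy chain genes belong to a family of close copies, so their probe sets can also read relatives. Nlrc5, the activator of class I transcription, reached 200 on 3 arrays and was not tested, with 187, 269, 301 and 303 in the wild type and 180.2, 142, 186 and 172 in the knockout. All its knockout arrays were lower than the lowest wild-type array, though wild type 1 and knockout 3 nearly coincided. Without the minimum its difference was -0.58 ± 0.22 (SE; limma, adjusted p = 0.433).

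The immunoproteasome had 1 of 4 tested members past the threshold, against 0.152% of all probe sets called lower. At an unadjusted p under 0.05 in limma, 3 were lower and 0 higher, against 7.32% and 7.12% of all probe sets. The median log2 difference was -1.02. The groups did not overlap for the 3 catalytic subunits, against 4.85% of all probe sets lower in this way. These subunits replace their constitutive counterparts and change which peptides the proteasome cuts. Psmb10 had 867, 1412, 1395 and 1028 in the wild type and 603, 424, 384 and 549 in the knockout. The knockout arrays lay under the lowest wild-type array, wild type 1. Psmb10 thus stood at 1176 ± 271 (SD, n = 4) against 490.1 ± 103 (SD, n = 4), a log2 difference of -1.23 ± 0.20 (SE; limma, adjusted p = 0.0466). The adjusted p was 0.0361 without wild type 1 and 0.0322 without knockout 4. It was 0.169 without wild type 2, 0.157 without wild type 3, 0.0904 without wild type 4, 0.0546 without knockout 1, 0.137 without knockout 2 and 0.146 without knockout 3.

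Psmb9 had 417, 585, 718 and 642 in the wild type and 121, 279, 193 and 289 in the knockout. There was no overlap, with knockout 1 lowest and wild type 1 the lowest of its group. The log2 difference was -1.40 ± 0.27 (SE; limma, adjusted p = 0.0640), and without knockout 4 it was -1.55 (limma, adjusted p = 0.0344). No other array, when left out, gave a call of Psmb9 (limma, adjusted p up to 0.202). Psmb8 had 485, 754, 727 and 658 against 338, 385, 321 and 419.9. Again wild type 1 was the lowest of its group and no array crossed. The difference was -0.80 ± 0.17 (SE; limma, adjusted p = 0.0826), and without wild type 1 it was -0.94 (limma, adjusted p = 0.0389). Psmb8 did not pass with any other array left out (limma, adjusted p up to 0.246). Psme1, a subunit of the activator ring that caps the proteasome, had 5104 to 7909 in the wild type and 4990.1 to 6261 in the knockout, overlapping, with a difference of -0.23 ± 0.15. Wild type 1 was the lowest wild-type array for all 4 of these genes and for the 6 class I genes tested.

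A list of 36 further proteasome genes, labelled constitutive proteasome, was read on the same arrays and holds no members. In limma 0 of the 36 were called (1 lower and 0 higher at an unadjusted p under 0.05), and their median log2 difference was -0.14. Pomp, the assembly chaperone of the core, gave -0.30 ± 0.13, and Psmd14, the deubiquitinase of the lid, -0.38 ± 0.19.

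On mouse chromosome 17, RefSeq places Psmb9, Tap1, Psmb8 and Tap2 next to each other in that order, between the H2-DM genes and H2-Ob, with H2-Ab1, H2-Aa and H2-Eb1 beyond. Neighbours along this stretch did not share 1 value: the log2 differences were -1.40 for Psmb9, -0.997 for Tap1, -0.80 for Psmb8, -0.26 for Tap2, -0.37 for H2-Ab1, -0.85 for H2-Aa and -0.57 for H2-Eb1. Psmb10 lies on chromosome 8, away from the other catalytic subunits.

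Class II presentation had 0 of 4 tested members past the threshold in limma (3 lower and 0 higher at an unadjusted p under 0.05), with a median log2 difference of -0.67 and overlapping groups for each. H2-Eb1, a beta chain, had 608, 1074.5, 912 and 874 in the wild type and 496, 627, 564 and 591 in the knockout. Wild type 1 alone fell within the knockout range, and the difference was -0.57 ± 0.18 (SE; limma, adjusted p = 0.190). H2-Aa, an alpha chain, had 522, 1407, 1061 and 1136 against 320.5, 894, 455 and 609, with a difference of -0.85 ± 0.34. Cd74, the invariant chain that guards the class II groove, had 787, 2108, 1739 and 1757 against 489, 1308, 850.1 and 1039, with a difference of -0.78 ± 0.34. H2-Aa and Cd74 shared an order of arrays: wild type 1 and knockout 1 were the lowest of their groups and wild type 2 and knockout 2 the highest. H2-Ab1, the beta chain paired with H2-Aa, ranged from 389 to 821 in the wild type and from 315 to 572 in the knockout (-0.37 ± 0.26), and its second probe set gave -0.80 ± 0.28.

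Wild type 1 and knockout 1 were the lowest arrays of their groups for all 4 class II genes. They also had the highest 3′/5′ ratio of pyruvate carboxylase in their groups, 3.46 and 7.03. The same ratio of the transferrin receptor did not set them apart: it was 6.50 and 6.55 on these arrays, 6.53 and 6.72 on wild type 2 and knockout 2, and 4.21 to 4.83 on replicates 3 and 4. In replicates 3 and 4, which leave both out, the class II median was -0.75, and in replicates 1 and 2 it was -0.59. Without wild type 1 alone it was -0.91, and without knockout 1 alone -0.51. The part of RNA quality in the class II values was not tested. Ciita, the master activator of class II transcription, stayed under 200 on every array, with 98.7 to 137.5 in the wild type and 81 to 156 in the knockout.

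Among receptors, regulators and chemokines 0 of 5 tested members passed in limma (2 lower and 0 higher at an unadjusted p under 0.05), and the median log2 difference was -0.46, with -0.23 without wild type 3 and -0.22 without knockout 3. The receptor chains overlapped between the groups. Ifngr1, which binds the ligand, ranged from 1174 to 1719.7 in the wild type and from 1275 to 1524 in the knockout (-0.08 ± 0.15). Ifngr2, the signalling chain, had 709.5, 579, 553 and 619 against 603, 479, 531 and 544 (-0.18 ± 0.14). Irf1, an early induced factor that drives secondary targets, had 1386, 1457, 1413 and 1509 in the wild type and 800.0, 903, 971 and 1173.5 in the knockout. The wild-type arrays were tightly bunched and all knockout arrays lay under them. The log2 difference was -0.59 ± 0.14 (SE; limma, adjusted p = 0.107), and without knockout 4, the nearest to the wild type, it was -0.69 (limma, adjusted p = 0.0477). Leaving out any other array did not bring Irf1 past the threshold (limma, adjusted p up to 0.290).

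Irf8, a factor of the macrophage and B cell lineages, had 580.3, 747, 879 and 983 in the wild type and 475, 650.0, 536 and 612 in the knockout. Wild type 1 lay inside the knockout range, and the difference was -0.46 ± 0.18; the second probe set gave -0.65 ± 0.22. Cxcl10, a chemokine that draws activated T cells, had 293, 604, 929 and 281 against 310.4, 653, 160.0 and 306. Arrays of both groups were mixed, and the difference was -0.53 ± 0.44. Its relative Cxcl9 reached 200 on wild type 3 alone, at 354, against 18 to 65 on the other wild-type arrays and 11 to 24 on the knockout arrays. Its other probe set, under 200 on every array, had 57.8, 121.9, 96.0 and 46.3 in the wild type, where wild type 3 was not the highest. Socs1, the feedback inhibitor of the receptor, stayed under 200 on every array, from 55.5 to 138 in the wild type and from 63 to 139.7 in the knockout.

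The groups of members did not single out the same arrays. For each member a distance from the wild-type mean was taken on the log2 scale, and the median over the group's members was formed on each array. For the GTPases this median was 0.09, 0.06, 0.22 and -0.28 on wild-type arrays 1 to 4 and -1.13, -0.37, -1.39 and -0.72 on knockout arrays 1 to 4. For the immunoproteasome it was -0.40, 0.25, 0.22 and 0.03 against -0.91, -0.87, -1.24 and -0.79. Neither set of medians overlapped between the groups, but the low wild-type array was number 4 for the GTPases and number 1 for the immunoproteasome. For class II it was -0.78, 0.42, 0.17 and 0.14 against -1.26, -0.18, -0.69 and -0.52, where wild type 1 lay among the knockouts. For class I it was -0.53, 0.03, 0.19 and 0.35 against 0.03, -0.13, -0.16 and -0.03, so the knockouts fell inside the wild-type range. For receptors, regulators and chemokines it was -0.05, 0.02, -0.03 and 0.02 against -0.56, -0.26, -0.53 and -0.29.

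**Figure D3:**
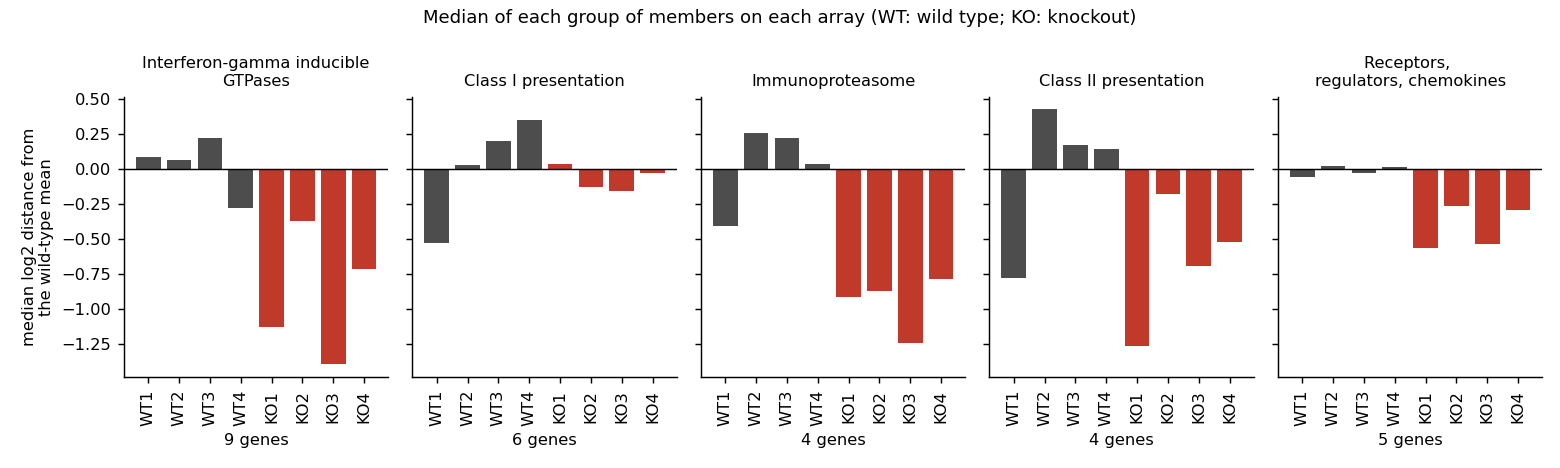
Median log2 distance from the wild-type mean over the tested members of each group, on each array (WT wild type in grey, KO knockout in red). The GTPase bars of knockouts 1 and 3 reach -1.13 and -1.39, while wild type 1 is low for class I, immunoproteasome and class II genes.

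Within the first set (replicates 1 and 2) the median log2 difference of the members was -0.52, with 22 of 28 below 0, and within the second (replicates 3 and 4) it was -0.73, with 27 below 0. Members below 0 in both sets numbered 21, the 9 GTPases, the 4 immunoproteasome genes and the 4 class II genes among them. Class I differed in sign, with a median of 0.23 in the first set and -0.42 in the second. The difference between the sets was tested in limma: 1 of 28 members, H2-K1, had an unadjusted p under 0.05, against 9.92% of all probe sets, and 0 an adjusted one. With the set as a block, 3 members were called lower (Gbp7, Psmb9 and Psmb10; adjusted p = 0.0317, 0.0411 and 0.0389), against 0.397% of all probe sets. With the block and without wild type 4 they were Gbp7 and Psmb10 (adjusted p = 0.0415 and 0.0484), against 0.25% of probe sets.

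**Figure D4:**
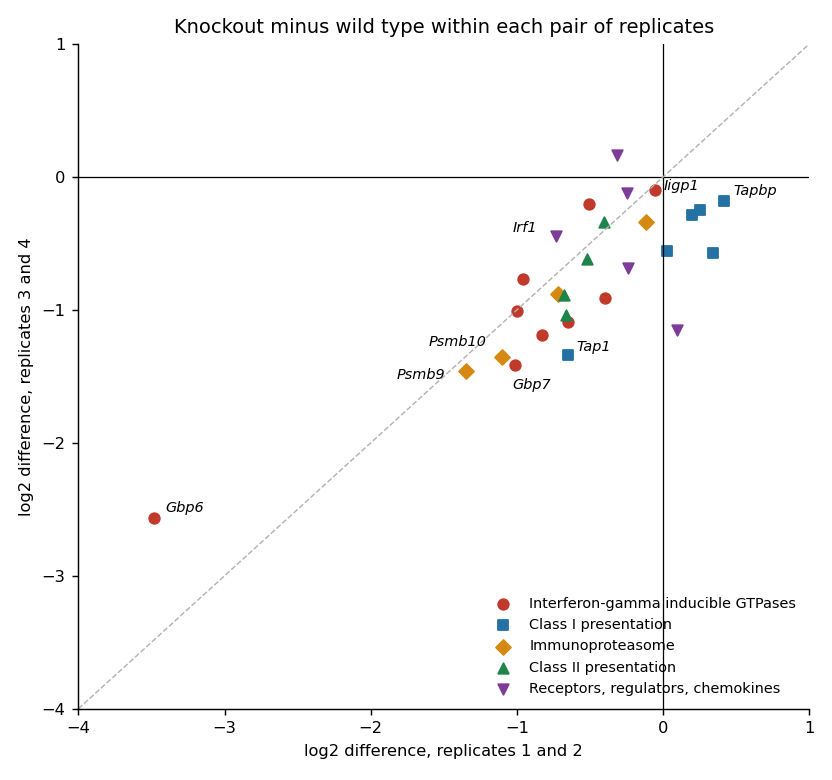
Log2 difference (knockout minus wild type) of each tested member in replicates 1 and 2 (horizontal axis) and in replicates 3 and 4 (vertical axis), with the line of equality dashed. Most members lie below 0 on both axes, Gbp6 farthest, whereas all class I genes but Tap1 lie right of 0 and below it.

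Other genes of the interferon-gamma pathway, 10 tested out of a list of 21, had a median log2 difference of 0.00 with 0 called in limma (0 lower and 1 higher at an unadjusted p under 0.05). Socs3, an inhibitor of cytokine receptors, had the smallest p, with 378.5 to 641 in the wild type and 616 to 1271.5 in the knockout, overlapping, and a difference of 0.78 ± 0.24 (SE; limma, adjusted p = 0.181). Gbp8, another guanylate-binding protein, gave -0.86 ± 0.41. Ifng, the ligand itself, and its targets Ido1, Nos2 and Cxcl11 stayed under 200 on every array. Of 23 type I interferon response genes tested, 0 were called in limma (5 lower and 1 higher at an unadjusted p under 0.05), the median was -0.25, and it was 0.01 in the first set and -0.69 in the second. Ifih1, a sensor of viral RNA, gave -0.49 ± 0.16, and Ifi27l2a -0.87 ± 0.28.

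Among 10 other class I genes 0 were called in limma (2 lower and 0 higher at an unadjusted p under 0.05), with a median of -0.21; H2-M3, a nonclassical heavy chain, gave -0.39 ± 0.15 and Sec61b, a channel subunit of the endoplasmic reticulum, -0.35 ± 0.15. Among 13 other class II genes 0 were called (1 lower and 1 higher at an unadjusted p under 0.05), with a median of -0.03. Rfxap, a subunit of the complex that binds class II promoters, gave 0.52 ± 0.13 (SE; limma, adjusted p = 0.115), and H2-DMa, which helps to load peptides, gave -0.54 ± 0.23.

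Markers of the cells that could carry these transcripts were read on the same arrays, and in limma 0 were called in any of the 8 cell type lists. The lymphocyte lists had lower ranges of summed signal in the knockout, but the groups overlapped. Gzma alone was a large part of the T and NK cell sum. The summed signal of the 14 T and NK cell markers ranged from 3766 to 5339 in the wild type and from 2246 to 3801 in the knockout, with a median log2 difference of -0.23 over the 6 tested (2 lower and 0 higher at an unadjusted p under 0.05). Gzma, a protease of cytotoxic cells, had 1540.4, 1665, 1413 and 2536 against 559, 1192, 729 and 740.1, with no overlap and a difference of -1.15 ± 0.25 (SE; limma, adjusted p = 0.0826); Gzmb gave -0.69 ± 0.22. The defining genes Cd3e, Cd3d, Cd3g, Cd4, Cd8b1 and Ncr1 stayed under 200 on every array, and none was at 0. The summed signal of the 9 B cell markers ranged from 2356 to 4569.5 in the wild type and from 1352.5 to 3185 in the knockout, and the 7 tested lay below 0 with a median of -0.43 (1 lower and 0 higher at an unadjusted p under 0.05), or -0.23 without wild type 4. Ms4a1, or CD20, gave -0.49 ± 0.22 and Cd79b, a chain of the B cell receptor complex, -0.55 ± 0.34. The part of these lymphocyte markers in the values of the members was not tested.

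The myeloid and tissue lists had medians between -0.22 and 0.13 over all arrays, but several changed sign between the sets. In replicates 1 and 2 the median was 0.33 for Kupffer cell and macrophage, 0.27 for endothelial, 0.26 for hepatocyte and -0.65 for erythroid markers. In replicates 3 and 4 it was -0.19, -0.11, -0.11 and 0.16 in that order. Of the 9 erythroid markers tested, 7 had an unadjusted p under 0.05 for the difference between the sets, and 0 an adjusted one. The 14 Kupffer cell and macrophage markers had a summed signal of 32490 to 43937 in the wild type and 32853 to 54177 in the knockout, with a median of 0.02 (0 lower and 1 higher at an unadjusted p under 0.05), or 0.14 without wild type 4. Among them Vsig4, a complement receptor, gave 0.54 ± 0.22 and Cd68, a lysosomal protein, -0.34 ± 0.19. The 4 dendritic cell markers tested gave a median of -0.11 (0 in either direction). Endothelial markers gave 0.13 (1 lower and 1 higher of 11), erythroid markers -0.17 (0 of 9 in either direction) and granulocyte markers -0.22 (2 lower and 0 higher of 10). The hepatocyte markers, which check the labelled tissue, were well above the minimum, with a summed signal of at least 212172 on each array and a median difference of 0.08 (0 lower and 2 higher of 11).

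**Figure D5:**
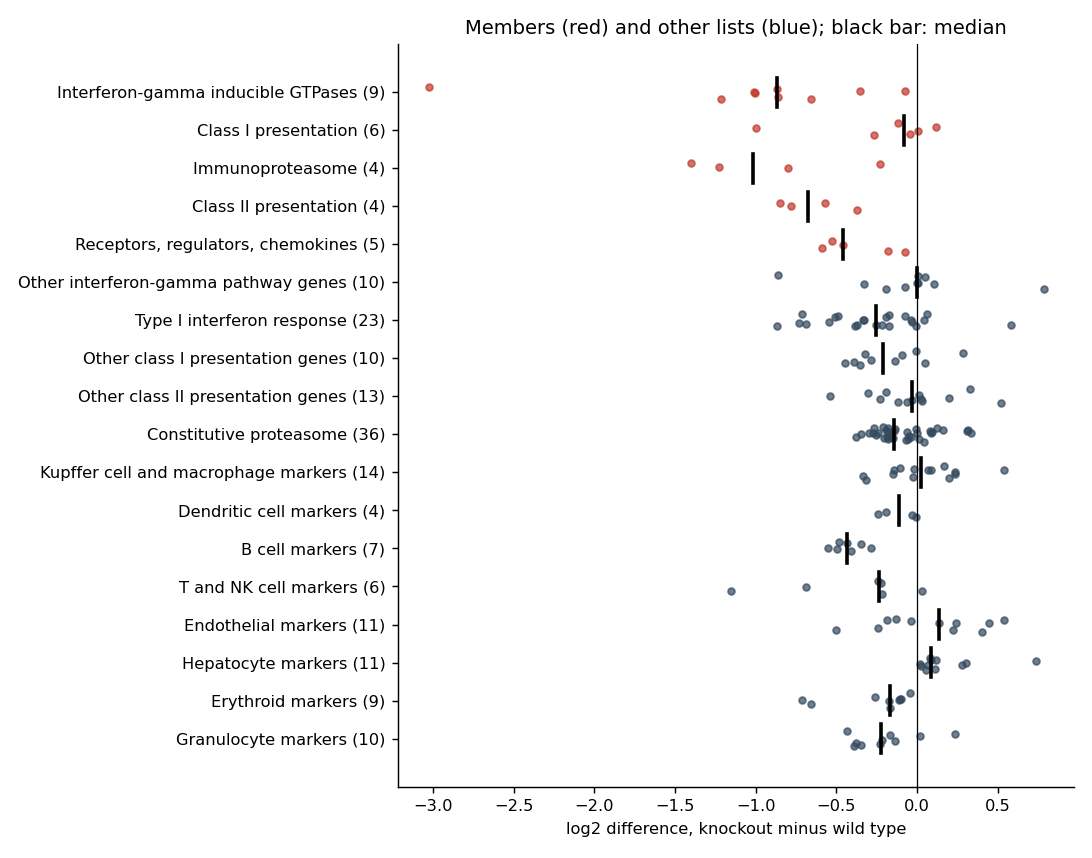
Log2 difference (knockout minus wild type) of each tested gene in the member groups (red) and in other lists (blue), with the number of genes in brackets and the median as a black bar. The medians of the GTPases and the immunoproteasome lie at -0.87 and -1.02, and those of the other lists between -0.43 and 0.13.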

How the data were processed

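RNA of 8 livers was measured on 8 Affymetrix Mouse 430 2.0 arrays. Per the labels, the authors' deposited values are signal intensity from GCOS 1.2 at default settings, with every array scaled to a target signal of 500. The values proved linear, and no further scaling was applied. Titles gave the groups and replicate numbers. Gene names came through the platform annotation and RefSeq (34945 probe sets with 1 gene, 932 with several, 9160 with none). Log2(signal + 16) was compared with limma 3.58.1 in R 4.3.3 (lmFit, eBayes with an intensity trend, two-sided), over the 20395 probe sets that reached 200 on at least 4 of 8 arrays, with Benjamini-Hochberg adjustment; the step was tested on simulated data. Differences on that scale understate changes of dim genes. Probe sets past an adjusted p of 0.05 were called. The members and lists were chosen with earlier results of these data known. The text names called members, the 3 smallest p-values in each group of members, and up to 2 with the smallest p in each other list; other names were chosen after their values were seen. Replicate numbers were not taken as pairs. Alternatives were other pseudocounts, signal minimums, scalings, limma settings, probe set choices, blocks, and each array left out. P-values measure the spread between individual livers. Tables and figures used Python 3.11.15, pandas 2.3.3 and matplotlib 3.10.9.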

Additional observations from a re-analysis of the deposited data

Results flagged for a closer look

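In 4 of 64 groups of 4 arrays 1 array stood apart from the other 3 by Dixon's criterion, where chance gives about 1 group in 20. Irgm1 was at 905.1 on knockout 1, against 1371 to 1464 on the other knockout arrays. Irgm2 was at 1732.1 on wild type 4, the array that went against its male label, against 2212 to 2280.1 on the other wild-type arrays. H2-Ab1 was at 315.2 on knockout 1, against 549 to 572 on the other knockouts. Cxcl9 was at 353.7 on wild type 3, against 18 to 65 on the other wild-type arrays; its other probe set read 96.0 there and 121.9 on wild type 2.

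Tapbp differed in sign between the sets, with a log2 difference of 0.42 in replicates 1 and 2 and -0.18 in replicates 3 and 4. The difference between the sets was -0.60 ± 0.33 (SE; limma, adjusted p = 0.549). H2-K1, H2-D1, B2m, Tap2, Ifngr1 and Cxcl10 also differed in sign. H2-K1 had 0.34 in replicates 1 and 2 and -0.57 in replicates 3 and 4. Its difference between the sets was -0.91 ± 0.33 (limma, adjusted p = 0.490).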

How the results depend on the processing

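The count of 2 called members moved most. It was 0 in limma with no signal minimum or with a minimum of 100 (16 members lower and 0 higher at an unadjusted p under 0.05 in each), 0 without the intensity trend (14 and 0), 1 with the dimmest tested probe set, and 0 in replicates 1 and 2 or 3 and 4 alone (9 and 19 lower, 0 higher). Leaving out 1 array gave 0 to 6 called (12 to 18 lower). Calls over all probe sets then ran from 2 to 123 lower and from 0 to 211 higher. They were 13 and 8 with no minimum, 14 and 8 with a minimum of 100, and 14 and 4 without the trend. In replicates 1 and 2 alone they were 6 and 24, and in replicates 3 and 4 alone 2 and 0. The share of all probe sets at an unadjusted p under 0.05 is not given for these alternatives. Nothing is therefore read from the unadjusted counts of members. With the replicate number as a block the count of members was 1, against 30 lower and 26 higher over all probe sets. That member was Psmb9 (limma, adjusted p = 0.0454), with Gbp7 at 0.0790 and Psmb10 at 0.0885. In this fit H2-Aa and Cd74 came to adjusted p-values of 0.0739 and 0.0667 in limma. Same-numbered arrays correlated at 0.22, 0.40 and 0.34 in 3 pairs and 0.05 in the last, in their deviations from the group means; wild types 1 and 2 correlated best with their own number, and wild types 3 and 4 with knockouts 4 and 3. The medians of all members, the GTPases, the immunoproteasome and class II moved by less than the spread between arrays under the 23 alternatives. The class I median was 0.23 in replicates 1 and 2 and -0.42 in replicates 3 and 4. The median of receptors, regulators and chemokines was -0.25 in replicates 1 and 2, and -0.60 to -0.22 with 1 array left out. Tap2 turned to 0.027 in replicates 1 and 2. Tapbp turned to -0.066 as the mean over probe sets, -0.25 with the dimmest probe set, -0.18 in replicates 3 and 4, and -0.049 without wild type 1 (range -0.049 to 0.20 with 1 array left out). The cause of these shifts was not tested. Of 345 values of the 15 members named by the rule, 307 kept their direction and side of the threshold, 26 lost the call, 7 gained it and 5 changed sign. Dim members, such as Gbp6 in the knockout, are limited by signal over background, and the table has no detection calls.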
